A study of Rattus norvegicus with 12 samples.

Results

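Transcripts of the rat histocompatibility complex, which is named RT1, and of the genes that load its products with peptide were measured in striatum from 12 male rats. They were taken as every probe whose gene name on the array begins with RT1-, together with those for B2m, Tap1, Tap2, Tapbp, Psmb8, Psmb9, Cd74 and Ciita. This gave 60 probes for 42 gene names out of 40998 probes in all. Detection, taken as a signal well above background on no fewer than 3 of the 12 arrays, was met by 51 probes for 36 gene names, and by 32230 probes over the whole array. The 51 comprised 32 probes for 23 class I chain genes, 9 probes for 6 genes of the class I pathway (B2m, Tap1, Tap2, Tapbp, Psmb8 and Psmb9), 9 probes for 6 class II chain genes, and the Cd74 probe. Each probe is a DNA oligonucleotide of 60 bases, and 42 of the 60 were well above background on all 12 arrays.

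The rats were Sprague-Dawley, an outbred stock, and both striata of each brain were taken after perfusion with chilled saline. For 40 min each rat had been in air, in carbon monoxide (CO) at 1000 or at 3000 ppm, or in 5% oxygen (O2, here low oxygen). The air rat was taken at 0 h, the rats of either CO dose at 0, 2, 6 and 12 h, and the low oxygen rats at 0, 2 and 6 h, with 1 rat for each of these 12 groups. The comparison addressed by the series is carbon monoxide poisoning against hypoxia from low oxygen. Animal age and RT1 genotype were not given in the labels, so a difference between groups and a difference between individual rats cannot be told apart at any single array.

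Class I molecules pair a variable heavy chain with beta-2 microglobulin (B2m) and display peptides cut by the proteasome. The peptides are carried into the endoplasmic reticulum by the Tap1 and Tap2 transporter and are loaded with the help of tapasin (Tapbp), while Psmb8 and Psmb9 are subunits of the immunoproteasome. Class II molecules pair an alpha with a beta chain, are held in the secretory path by the invariant chain Cd74, and depend for their transcription on Ciita. In rat, RT1-B and RT1-D are the class II pairs, RT1-DM edits their peptide load and RT1-DO modulates RT1-DM. RT1-A holds the classical class I genes, while the RT1-C/E and RT1-M regions hold many related, mostly non-classical ones. In healthy brain, class II is found mainly on macrophages at the borders of the tissue and on some microglia.

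The class I genes are close copies of one another, which bears on what each probe reports. Among the 60 probes, 28 pairs aligned without gaps over an overlap of at least 19 bases, with at least 80% identity over the whole overlap. Of these pairs, 26 joined genes of different names. Pairs that match over only part of an overlap are not counted, so related pairs may be more numerous. The 21 probes involved included 19 class I chain probes. Pairs with related sequence are printed below because their values are described further on. The capitals mark the bases at which the aligned stretches of a pair differ.
RT1-A2 A_44_P184753: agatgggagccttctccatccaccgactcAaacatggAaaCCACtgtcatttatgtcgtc
RT1-CE2 A_44_P107372: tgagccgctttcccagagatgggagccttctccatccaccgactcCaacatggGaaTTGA
RT1-A3 A_44_P501234: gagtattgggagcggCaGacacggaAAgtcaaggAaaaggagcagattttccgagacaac
RT1-CE10 A_44_P389019: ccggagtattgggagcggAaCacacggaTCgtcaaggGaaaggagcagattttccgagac
The RT1-A2 and RT1-CE2 probes overlapped over 44 bases, of which 38 were identical, and the RT1-A3 and RT1-CE10 probes over 57 bases, of which 52 were identical. Against this, 3 probes all named RT1-EC2 shared no such overlap with each other, and they carry the largest contrast between probes of a single gene name. Of these, A_44_P324707 opens with ttctccatccaccgactccaac, which the RT1-CE2 probe above also holds.
RT1-EC2 A_44_P196401: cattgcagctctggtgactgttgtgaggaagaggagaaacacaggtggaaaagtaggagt
RT1-EC2 A_44_P324707: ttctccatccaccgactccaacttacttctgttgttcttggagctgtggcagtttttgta
RT1-EC2 A_44_P390172: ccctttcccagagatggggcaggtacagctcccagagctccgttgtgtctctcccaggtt
All sequences are those of the array design. In the rn4 genome build given by the array files, 44 of the 60 probes lay on chromosome 20, where the RT1 complex is, and 3 on its unplaced sequence. The 4 B2m probes lay on chromosome 3, Cd74 on chromosome 18 and Ciita on chromosome 10, while 7 probes had no position.

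Levels are given as log2 of the background-subtracted signal minus the 75th percentile of the same array, so that 0 is the signal of the 75th percentile spot. They compare arrays for a given probe and not probes with each other. Values for a probe are listed in the order air, then 0, 2, 6 and 12 h after each dose of CO, then 0, 2 and 6 h after 5% O2. The arrays were alike in quality: the 75th percentile signal lay between 463 and 806 units, between 72.9% and 78.7% of spots were well above background, and no spot was saturated. Air and the 0, 2 and 6 h arrays of 3000 ppm CO shared slide 1, the 4 arrays of 1000 ppm CO made up slide 2, and the 12 h array of 3000 ppm CO and the 5% O2 arrays were on slide 3. Slide and dose therefore cannot be told apart for 1000 ppm CO. The median of 9 genes of medium spiny neurons, the main neurons of the striatum, was -0.66 in the 0 h rat of 5% O2 and 2.27 in the 6 h rat of 1000 ppm CO, against 3.18 to 4.51 in the other 10. Without these 2 arrays 2 members and 637 of 32230 probes passed between the doses of CO, where 3 and 1436 did with them. In each other contrast that could be fitted 0 members and at most 5 probes passed.

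The range of a probe over the 12 rats, with any signal not well above background raised to the detection floor of its array, differed in size between the classes. The median range was 1.38 for the 32 class I chain probes, 1.45 for the 10 probes of class II chains and Cd74, and 0.72 for the 9 class I pathway probes, against 0.90 for all 32230 probes. A range of at least 2-fold was seen in 33 of the 51 probes, against 43% of all probes, and a range of at least 4-fold in 11 of them, against 9.33%. Those 11 were 7 of the 32 class I chain probes and 4 of the 10 class II probes, with 0 of the 9 pathway probes. A range of at least 8-fold was reached by 3 class I chain probes, against 2.33% of all probes. These counts describe 1 rat per group and carry no test.

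**Figure D1:**
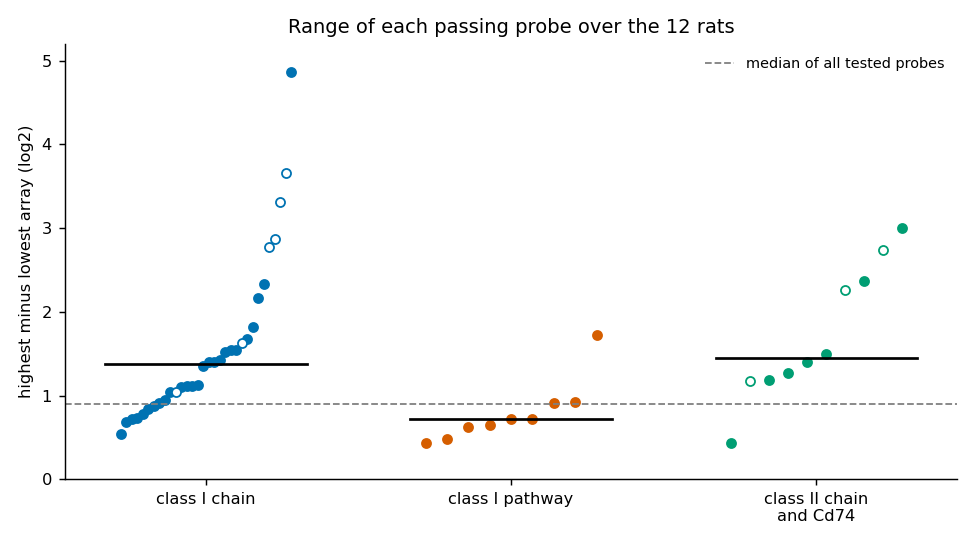
Range over the 12 rats, as highest minus lowest array on the log2 scale, of each of the 51 probes that passed detection, by class. Bars are class medians, open circles are probes whose signal was near background on 1 or more arrays, and the dashed line is the median of all 32230 probes, 0.90. The class I pathway probes sit low, with Tap1 at 1.72 the highest of them.

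Among class I chains the largest range belonged to an RT1-EC2 probe, A_44_P196401. It read -3.36 in air, -0.0074, 0.27, -3.83 and 0.83 in the 1000 ppm rats, 0.70, 0.41, 0.47 and -1.73 in the 3000 ppm rats and 0.56, -3.38 and 1.04 in the low oxygen rats. The signal was low in the air rat, in the 6 h rat of 1000 ppm CO and in the 2 h rat of 5% O2, intermediate in the 12 h rat of 3000 ppm CO, and high in the other 8, so that low and high rats occurred within an exposure and at different times. The range was 4.86, or 29.1-fold. This probe is spotted 10 times on each array, and the SD over the spots of an array was between 0.031 and 0.17, far below the gaps between rats. No time or exposure contrast passed for it.

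The other RT1-EC2 probes did not share that pattern. Probe A_44_P324707 had a range of 0.73, with the 3 rats low for A_44_P196401 at -1.15, -1.20 and -0.82. Probe A_44_P390172 read -0.79 in air, -0.23, 0.024, 0.24 and 0.64 in the 1000 ppm rats, 0.070, -0.47, -0.60 and 0.26 in the 3000 ppm rats and -0.46, -0.030 and -0.18 in the low oxygen rats, lowest in air. The fourth, A_44_P313652, read -3.69 in air, -3.19, -2.89, -4.31 and -3.17 in the 1000 ppm rats, -3.11, -4.73, -3.97 and -6.08 in the 3000 ppm rats and -3.52, -2.70 and -3.62 in the low oxygen rats. Its 12 h value of 3000 ppm CO was not well above background and all its other arrays were, which makes its range at least 2.87.

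The RT1-CE10 probe (rn4 chromosome 20, 3469045 to 3469104, plus strand) read -1.98 in air, -4.09, -3.70, -3.02 and -2.97 in the 1000 ppm rats, -5.74, -5.65, -3.29 and -4.70 in the 3000 ppm rats and -3.14, -2.38 and -2.9960 in the low oxygen rats. Air was the highest array, and the signal was not well above background in the 0 and 2 h rats of 3000 ppm CO. The RT1-A3 probe, which differs from it at 5 of 57 aligned bases, read -7.64 in air, -5.81, -5.54, -7.27 and -4.43 in the 1000 ppm rats, -6.65, -7.10, -6.29 and -4.83 in the 3000 ppm rats and -6.75, -5.54 and -5.16 in the low oxygen rats. Here air was near background, and only 4 of the 12 arrays were well above it, with the 12 h rats of both CO doses the highest.

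The class I gene RT1-M4 read -5.02 in air, -5.23, -3.72, -7.80 and -5.49 in the 1000 ppm rats, -4.34, -3.02, -2.67 and -6.10 in the 3000 ppm rats and -5.15, -3.32 and -5.08 in the low oxygen rats. Its signal was not well above background in the 6 and 12 h rats of 1000 ppm CO or the 12 h rat of 3000 ppm CO, and highest in the 2 and 6 h rats of 3000 ppm CO. For RT1-CE5 the 2 probes differed. Probe A_44_P172850 read -4.92 in air, -4.09, -4.27, -5.43 and -3.01 in the 1000 ppm rats, -5.18, -6.39, -5.79 and -4.48 in the 3000 ppm rats and -5.04, -3.44 and -4.62 in the low oxygen rats, with a range of at least 2.78. Probe A_42_P511274 read 2.36 in air, 1.96, 2.33, 1.88 and 1.84 in the 1000 ppm rats, 1.98, 2.39, 1.92 and 2.23 in the 3000 ppm rats and 2.17, 2.22 and 1.98 in the low oxygen rats, and its range of 0.54 was the smallest of any class I chain probe. The next smallest were RT1-CE12 and RT1-M6-2 (A_44_P309052). RT1-CE12 read 1.39 in air, 1.18, 1.41, 1.4997 and 1.82 in the 1000 ppm rats, 1.79, 1.39, 1.54 and 1.30 in the 3000 ppm rats and 1.60, 1.18 and 1.86 in the low oxygen rats. RT1-M6-2 read 1.61 in air, 1.29, 1.52, 1.93 and 1.95 in the 1000 ppm rats, 1.54, 1.24, 1.24 and 1.71 in the 3000 ppm rats and 1.5015, 1.49 and 1.52 in the low oxygen rats. Both stayed within a range of 0.72 with no exposure apart from the others.

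Of a group of related probes, 3 were lowest in the air rat. RT1-CE16 read 0.0087 in air, 1.36, 1.62, 0.64 and 2.34 in the 1000 ppm rats, 1.42, 0.90, 0.93 and 1.11 in the 3000 ppm rats and 1.04, 1.46 and 1.34 in the low oxygen rats. The RT1-A2 probe printed above and RT1-CE2 had the same shape: RT1-A2 was 0.032 in air and 0.71 to 1.85 elsewhere, and RT1-CE2 was 0.34 in air and 0.88 to 2.02 elsewhere. All 3 were highest at 12 h after 1000 ppm CO. RT1-CE3 shares 36 of 40 aligned bases with that RT1-A2 probe, and RT1-CE4 A_44_P440514 shares 48 of 58. Those 2 probes were not lowest in air, and lay above it on 9 and 7 of the 11 exposed arrays. The other RT1-A2 probe, A_44_P296155, was 0.71 in air and 0.21 to 1.26 elsewhere, so the 2 RT1-A2 probes disagreed about air. In all, 5 of 32 class I chain probes were above air on all 11 exposed arrays, against 9.39% of all probes. They were RT1-CE16, RT1-A2 A_44_P184753, RT1-CE2, RT1-Cl A_44_P554925 and RT1-EC2 A_44_P390172. RT1-CE10 alone of the class I chains was below air on all 11, against 7.73% of all probes. With normexp background correction the first count was 10, and it was 5 under quantile normalization and in the deposited values.

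**Figure D2:**
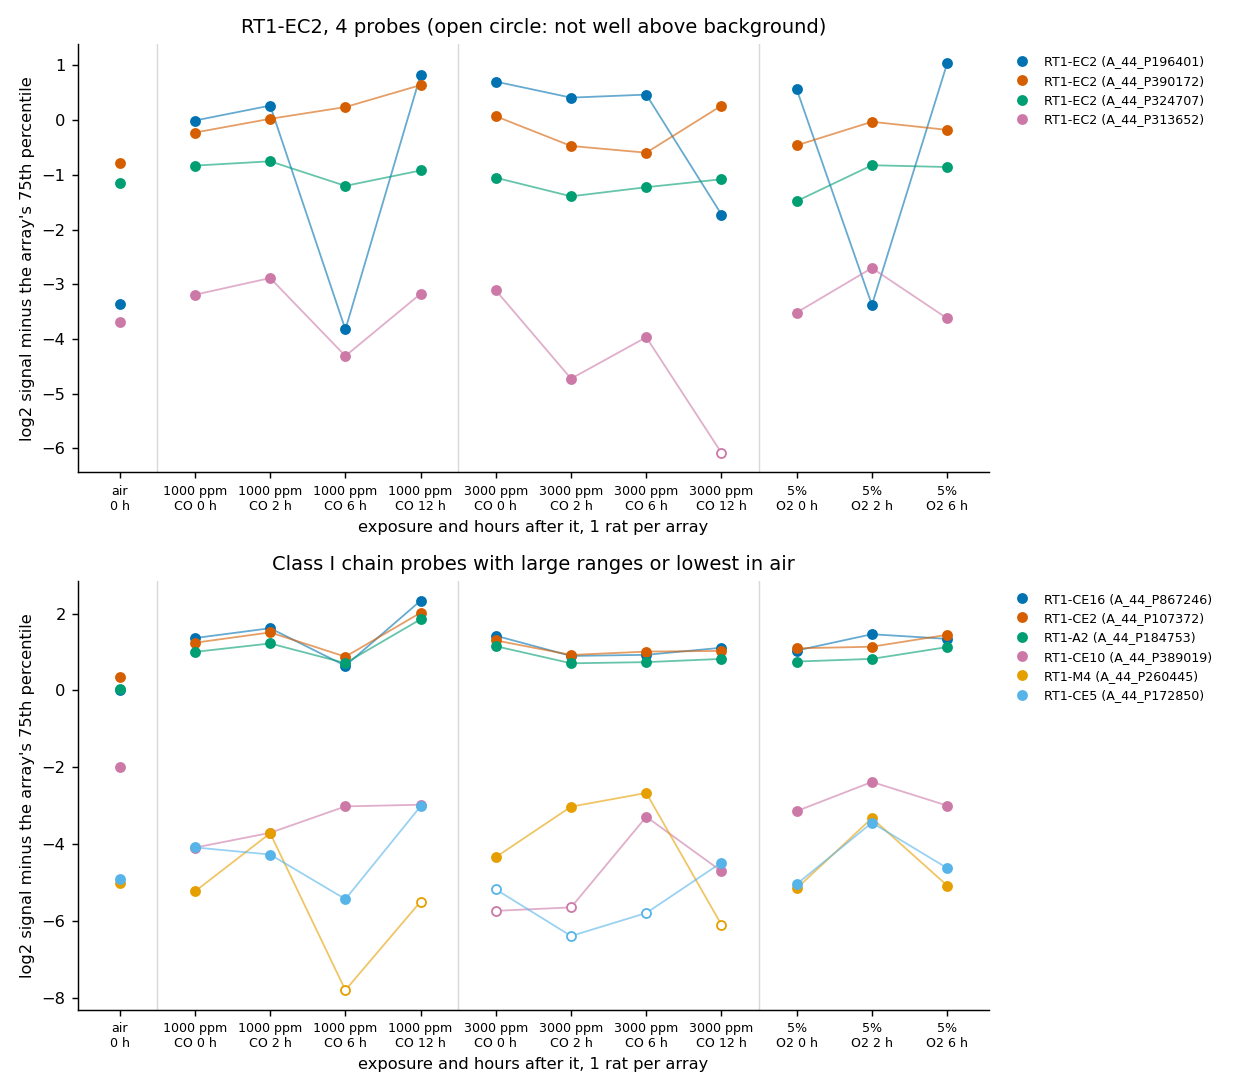
Levels of class I chain probes by array, as log2 signal minus the array's 75th percentile. Each point is 1 rat, lines join different rats of an exposure, and open circles are signals not well above background. RT1-EC2 A_44_P196401 is at -3.36 in air, -3.83 at 6 h after 1000 ppm CO and -3.38 at 2 h after 5% O2, while A_44_P324707 lies between -1.48 and -0.75. Heights of different probes are not comparable.

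Most class II probes were high in air. Cd74 read 0.44 in air, -1.85, -1.74, -0.15 and -0.83 in the 1000 ppm rats, -0.96, 0.16, -0.41 and -1.92 in the 3000 ppm rats and -0.0048, -0.18 and -0.17 in the low oxygen rats. The brighter RT1-Da probe, A_44_P991532 (rn4 chromosome 20, 4641104 to 4641163, plus strand), read -1.09 in air, -3.87, -3.43, -2.00 and -2.03 in the 1000 ppm rats, -3.0037, -1.97, -2.49 and -4.09 in the 3000 ppm rats and -1.85, -2.00 and -1.84 in the low oxygen rats. Both were lowest in the 0 and 2 h rats of the lower dose and the 12 h rat of the higher, with the 3 arrays of 5% O2 close together. RT1-Da spanned 2.9998 and Cd74 2.36 over the 12 rats.

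RT1-Db1, the beta chain partner of RT1-Da, read -1.61 in air, -3.11, -2.93, -1.84 and -2.56 in the 1000 ppm rats, -2.19, -1.93, -2.29 and -2.38 in the 3000 ppm rats and -2.42, -2.47 and -2.29 in the low oxygen rats with its brighter probe. RT1-Bb, the beta chain of the RT1-B pair, read -1.64 in air, -2.58, -2.54, -2.28 and -2.82 in the 1000 ppm rats, -2.38, -1.79, -2.22 and -2.78 in the 3000 ppm rats and -2.35, -2.17 and -2.22 in the low oxygen rats with probe A_44_P500803. RT1-Db2, a further beta chain gene, read -3.43 in air, -4.07, -4.81, -3.40 and -4.13 in the 1000 ppm rats, -4.02, -3.59, -3.86 and -4.03 in the 3000 ppm rats and -3.65, -4.00 and -4.15 in the low oxygen rats. Across the 8 class II probes detected on 11 or all 12 arrays, air was among the 2 highest arrays for 7 and the highest for 5. The 0 and 2 h rats of 1000 ppm CO were among the 3 lowest arrays for 6 probes each, and the 12 h rat of 3000 ppm CO for 5. No share over all probes was computed for these ranks, so they only describe these 8 probes. The 2 other detected class II probes, RT1-Ba A_44_P194167 and RT1-Bb A_44_P552452, were each well above background on 3 arrays. That RT1-Bb probe went the other way, highest in the 12, 2 and 0 h rats of 1000 ppm CO.

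RT1-DMa, the alpha chain of the peptide editor, was flat at 1.86 in air, 1.93, 1.92, 1.57 and 1.70 in the 1000 ppm rats, 1.62, 1.92, 2.00 and 1.58 in the 3000 ppm rats and 1.65, 1.91 and 1.63 in the low oxygen rats, a range of 0.43. RT1-Ba, the alpha chain of the RT1-B pair, was well above background on 3 arrays with its brighter probe, which read -6.85 in air, -7.03, -6.85, -5.24 and -4.88 in the 1000 ppm rats, -6.31, -5.34, -6.95 and -6.71 in the 3000 ppm rats and -6.91, -6.72 and -5.96 in the low oxygen rats. Its highest arrays were the 12 and 6 h rats of 1000 ppm CO. RT1-DOa, RT1-DOb and Ciita were not well above background on any of the 12 arrays. The other members that failed detection were RT1-CE6, RT1-M10-1, RT1-M2, 1 of 2 RT1-M6-2 probes, 1 of 2 RT1-Ba probes and 1 of 3 RT1-Db1 probes.

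**Figure D3:**
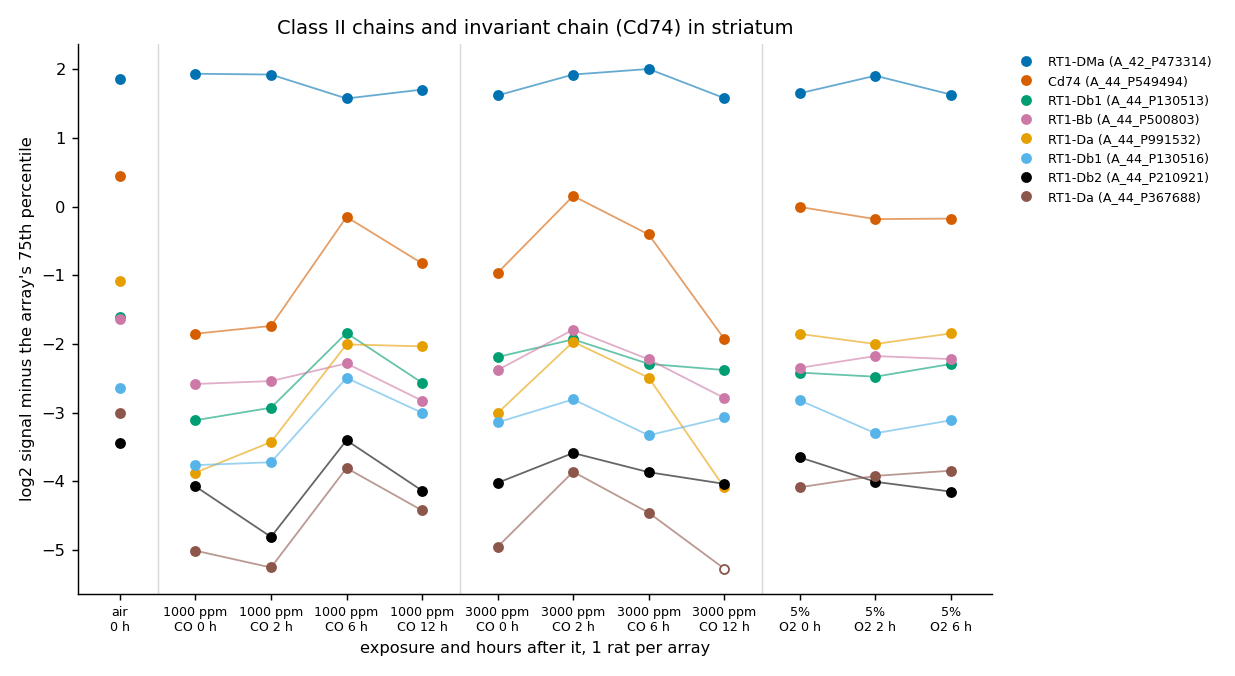
Levels of class II chain probes and Cd74 by array, as log2 signal minus the array's 75th percentile. Each point is 1 rat, lines join different rats of an exposure, and the open circle is a signal not well above background. Cd74 runs from -1.92 to 0.44 and RT1-Da A_44_P991532 from -4.09 to -1.09 in nearly the same order, while RT1-DMa lies between 1.57 and 2.00.

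Over the 12 arrays Cd74 and RT1-Da had Pearson's r = 0.95 and Spearman's rho = 0.93, with two-sided permutation p-values of 3e-05 and 7e-05, or 0.00018 and 0.00042 after Benjamini-Hochberg adjustment over 6 pairs. Without the arrays farthest from the Cd74 median, 1000 ppm CO at 0 h and 3000 ppm CO at 12 h, r was 0.91. Within slides of 4 arrays each, r was 0.96, 0.94 and 1.00. Cd74 and B2m had r = 0.58 (permutation p = 0.046, adjusted 0.14) and rho = 0.45 (permutation p = 0.15, adjusted 0.44). Without the same 2 arrays r was 0.14, and within the 3 slides it was 0.40, 0.65 and 0.94, each over 4 arrays. B2m and Tap1 had r = 0.086 (permutation p = 0.79, adjusted 0.79) and rho = 0.028 (permutation p = 0.94, adjusted 0.99), with r = -0.10 without the 2 farthest arrays. Within slides 1, 2 and 3 their r was -0.21, 0.89 and 0.70, so the pooled value does not describe slides 2 and 3, and Tap1 differed between slide 1 and the others as given further on. In every pair a gene was taken with its brightest detected probe, A_44_P214040 for B2m. The other B2m probes were not correlated, so these values describe that probe and not the gene. Among them A_44_P535612 was higher on slide 1, as Tap1 was.

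Markers of cells that carry class II, or that lie beside the striatum, were set against these values. Levels were not centred by gene, so a list median follows the genes of middle signal on each array. In air these were Csf1r at 0.42 and P2ry12 at 1.46 for the microglia list. The r of a list median therefore does not describe each of its genes. The median of 10 microglia genes lay between 0.89 and 1.71. For this median r with Cd74 was -0.12 (permutation p = 0.71, adjusted 0.79) with rho = -0.19 (permutation p = 0.56, adjusted 0.92). Its r with Cd74 was -0.55, -0.93 and 0.88 within the 3 slides. It was -0.36 without the 2 arrays where the microglia median lay farthest from its middle value, air and 3000 ppm CO at 12 h. The median of 5 perivascular macrophage genes lay between -1.95 and -1.02. With Cd74 it had r = 0.17 (permutation p = 0.61, adjusted 0.79) and rho = 0.0070 (permutation p = 0.99, adjusted 0.99). This r was 0.032 without its own 2 farthest arrays, 1000 ppm CO at 6 h and 3000 ppm CO at 2 h. Within the 3 slides it was 0.13, -0.47 and -0.013. The microglia median and B2m had r = 0.37 (permutation p = 0.24, adjusted 0.48) and rho = 0.16 (permutation p = 0.62, adjusted 0.92). Their r was -0.11 without air and 3000 ppm CO at 12 h. Within the 3 slides it was 0.49, -0.51 and 0.96, so the pooled value mixes opposite signs. Of 11 leukocyte genes 5 failed detection, 2 of them on every array, and the median of the other 6 lay between -4.09 and -3.37.

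Choroid plexus, the epithelium that borders the ventricle next to the striatum, varied far more. The median of its 7 genes was 2.58 in air, -5.08, -3.44, 1.86 and 0.82 in the 1000 ppm rats, -1.12, -2.44, -2.00 and -3.96 in the 3000 ppm rats and 0.19, 1.87 and 2.23 in the low oxygen rats. It was highest in air and lowest in the same 3 arrays as Cd74 and RT1-Da. The orders parted after 3000 ppm CO, where Cd74 was highest at 2 h and the choroid plexus median was at -2.44. The median of 6 meningeal fibroblast genes was 0.74 in air, -0.26, -0.13, 0.16 and -0.17 in the 1000 ppm rats, 0.62, 0.83, 0.20 and -0.66 in the 3000 ppm rats and 0.74, 0.27 and 0.38 in the low oxygen rats, again lowest at 12 h after 3000 ppm CO, followed by 0 h after 1000 ppm CO. The part of dissection or of these neighbouring tissues in the class II values was not tested. In bulk tissue, fewer cells of a type and less RNA per cell cannot be told apart.

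**Figure D4:**
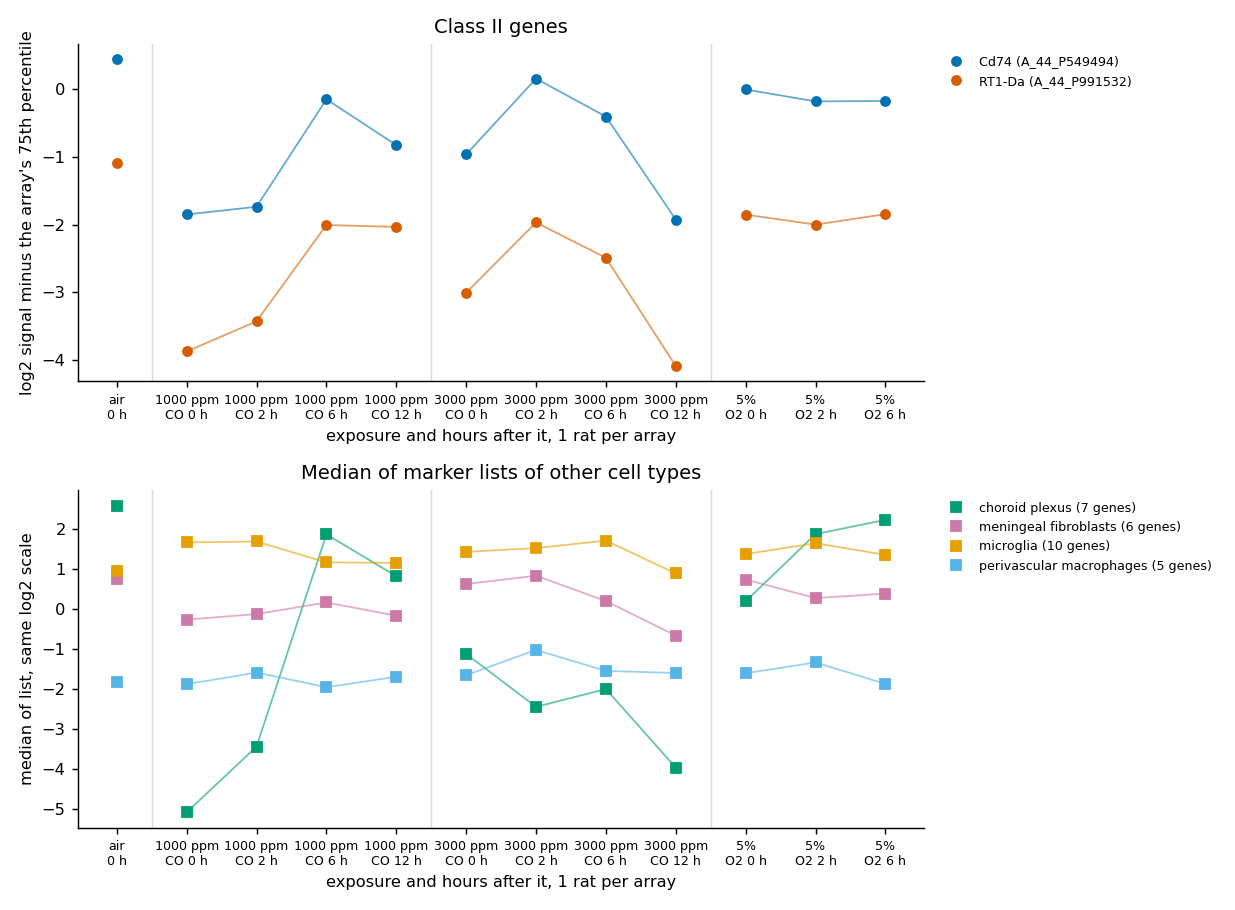
Cd74 and RT1-Da (top) and the median of 4 marker lists (bottom) by array, on the same log2 scale relative to the array's 75th percentile. Each point is 1 rat and lines join different rats of an exposure. The choroid plexus median runs from -5.08 at 0 h after 1000 ppm CO to 2.58 in air, and the microglia median from 0.89 to 1.71.

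In the class I pathway, the light chain B2m varied little. Its brightest probe, A_44_P214040, read 5.61 in air, 5.52, 5.70, 5.73 and 5.67 in the 1000 ppm rats, 5.58, 5.64, 5.66 and 5.41 in the 3000 ppm rats and 5.84, 5.89 and 5.71 in the low oxygen rats. The probe spotted 10 times had a range of 0.43, with an SD over the spots of an array of 0.015 to 0.037. Probe A_44_P535612 was apart: its 4 arrays on slide 1 lay between 5.59 and 5.74, and the other 8 between 5.02 and 5.43.

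Tap1, a chain of the peptide transporter, read -1.88 in air, -3.61, -3.17, -2.63 and -2.94 in the 1000 ppm rats, -2.05, -2.16, -2.02 and -3.29 in the 3000 ppm rats and -2.99, -2.85 and -2.69 in the low oxygen rats. Its slide 1 arrays lay between -2.16 and -1.88 and the other 8 between -3.61 and -2.63, with no overlap. These 2 were the members with all slide 1 arrays above the rest, against 7.83% of all probes, and for 0 members were they all below the rest, against 5.37%. Slide 1 was scanned on another date than slides 2 and 3. Slide cannot be told apart here from scan date, exposure and time. Tap2, the partner chain, read -1.10 in air, -1.45, -1.26, -1.03 and -1.40 in the 1000 ppm rats, -1.32, -1.58, -1.40 and -1.26 in the 3000 ppm rats and -1.15, -1.14 and -0.95 in the low oxygen rats. Psmb8 read -0.73 in air, -1.13, -1.02, -1.0025 and -1.11 in the 1000 ppm rats, -0.84, -1.10, -0.50 and -1.43 in the 3000 ppm rats and -1.04, -0.82 and -0.72 in the low oxygen rats. Psmb9 read -0.046 in air, -0.54, -0.40, -0.11 and -0.12 in the 1000 ppm rats, -0.33, -0.77, -0.39 and -0.63 in the 3000 ppm rats and -0.47, -0.28 and -0.28 in the low oxygen rats. Both proteasome subunits stayed within a range of 0.93, and Psmb9 and Tap1 were below air on all 11 exposed arrays. Tapbp read -2.00 in air, -2.01, -1.94, -2.26 and -1.71 in the 1000 ppm rats, -2.56, -2.50, -2.39 and -2.61 in the 3000 ppm rats and -2.14, -1.70 and -1.95 in the low oxygen rats, with the 4 arrays of 3000 ppm CO the 4 lowest.

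The 2 promoters below are printed because B2m and Tap1 were the 2 members whose promoters held the letters of an NF-kB site, and both held an interferon element. The stretches are the 250 bases before the RefSeq start in the GRCr8 build. Capitals mark matches on either strand to the interferon-stimulated response element, to an NF-kB site and to CCAAT (the Y box), none of which overlap here. The Y box was found for B2m and not for Tap1.
B2m: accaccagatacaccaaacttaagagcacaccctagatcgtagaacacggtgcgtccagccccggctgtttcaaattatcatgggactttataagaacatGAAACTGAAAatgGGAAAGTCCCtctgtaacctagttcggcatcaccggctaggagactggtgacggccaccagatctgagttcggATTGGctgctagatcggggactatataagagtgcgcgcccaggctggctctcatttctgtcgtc
Tap1: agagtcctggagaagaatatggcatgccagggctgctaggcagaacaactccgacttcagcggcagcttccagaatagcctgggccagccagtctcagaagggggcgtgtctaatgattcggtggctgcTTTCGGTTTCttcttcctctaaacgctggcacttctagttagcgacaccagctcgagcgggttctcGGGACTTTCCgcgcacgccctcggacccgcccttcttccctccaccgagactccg
B2m lies at chr3:129549080-129549329 on the plus strand and Tap1 at chr20:4668544-4668793 on the minus strand. The interferon element was found in 3.41% of 33469 promoters, and in 6 of the 35 member genes matched to RefSeq promoters: B2m, Tap1, Tap2, Tapbp, RT1-N3 and RT1-S3. The NF-kB letters were found in 32 promoters, 0.0956% of all, of which B2m and Tap1 were the 2 members. TTCNNNGAA, the interferon-gamma activated site, was in 7.67% of all promoters and in those of Psmb8 and RT1-M3-1.

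Class II promoters are known for a shared Y box, and these are printed for the RT1-D pair because RT1-Da and RT1-Db1 encode the chains of a single molecule and were both lowest or near lowest at 0 h after 1000 ppm CO.
RT1-Da: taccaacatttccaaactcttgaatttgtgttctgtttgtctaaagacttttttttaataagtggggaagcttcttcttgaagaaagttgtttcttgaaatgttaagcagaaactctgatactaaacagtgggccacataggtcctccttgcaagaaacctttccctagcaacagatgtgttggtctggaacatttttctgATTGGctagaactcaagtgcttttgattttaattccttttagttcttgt
RT1-Db1: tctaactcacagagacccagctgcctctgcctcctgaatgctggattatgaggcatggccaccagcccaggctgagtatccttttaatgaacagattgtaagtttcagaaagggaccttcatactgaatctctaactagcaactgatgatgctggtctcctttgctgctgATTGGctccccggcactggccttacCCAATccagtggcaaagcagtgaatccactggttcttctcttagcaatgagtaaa
RT1-Da lies at chr20:4515165-4515414 on the plus strand and RT1-Db1 at chr20:4560163-4560412 on the minus strand. Capitals mark CCAAT on either strand. It was present in 8 of 8 class II chain promoters, in 13 of 20 class I chain promoters and in 34% of all promoters. RT1-DMa, which was flat, has the letters as well. A match describes the letters and not the binding of a factor.

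Differences between exposures and times were tested with limma, in an additive model of exposure and time over all 12 arrays. Of the 51 members, 0 passed a Benjamini-Hochberg adjusted p of 0.05 at 2, 6 or 12 h against 0 h, where 0.0155%, 0.0186% and 0.0124% of all probes passed. At an unadjusted limma p under 0.05 the members numbered 0, 1 and 2, against 3.67%, 2.72% and 5.58% of all probes. The 2 at 12 h were RT1-A3, for which no 0 h array was well above background, and RT1-EC2 A_44_P390172, with a difference of 0.64 ± 0.26 (SE; limma adjusted p = 0.85). The 1 at 6 h was RT1-CE10, with 1.22 ± 0.49 (limma adjusted p = 1.0). Median differences of the 10 class II probes were 0.23, 0.35 and 0.067 at the 3 times, against 0.016, -0.015 and -0.010 for all probes. For 4 of the 51 members the later arrays of an exposure all lay above its 0 h array and those of another exposure all below theirs, with means at least 1 log2 unit apart, against 9.16% of all probes.

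Between the doses of CO, 3 of 51 members passed, against 4.46% of all probes. Among probes well above background on all 12 arrays, 2 of 42 members passed, against 3.99%. These 2 were RT1-N1 and RT1-M5. The other, RT1-Bb A_44_P552452, was well above background on 1000 ppm CO arrays alone and entered the test through them, so only a bound is given for it. RT1-N1, a non-classical class I gene, differed by -1.29 ± 0.23 (3000 minus 1000 ppm CO, log2, SE; limma adjusted p = 0.029). RT1-M5, of the RT1-M region, differed by 0.87 ± 0.17 (limma adjusted p = 0.037). RT1-N1 read -2.91 in air, -3.02, -2.20, -2.61 and -1.97 in the 1000 ppm rats, -4.07, -4.14, -3.18 and -3.59 in the 3000 ppm rats and -2.21, -2.35 and -2.10 in the low oxygen rats. RT1-M5 read -2.25 in air, -2.85, -3.04, -3.44 and -2.74 in the 1000 ppm rats, -2.21, -2.04, -2.12 and -2.21 in the 3000 ppm rats and -2.27, -2.49 and -2.14 in the low oxygen rats. The 4 arrays of each dose did not overlap for RT1-N1, for RT1-M5 or for Tapbp. All 3000 ppm CO arrays lay above the 1000 ppm CO arrays for RT1-M5 alone among the members, against 7.79% of all probes, and below them for RT1-N1 and Tapbp, against 3.48%.

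The RT1-Bb probe A_44_P552452 read -7.85 in air, -4.18, -3.79, -6.63 and -3.32 in the 1000 ppm rats, -7.74, -7.84, -7.97 and -6.73 in the 3000 ppm rats and -7.67, -8.06 and -7.43 in the low oxygen rats. It was well above background only at 0, 2 and 12 h after 1000 ppm CO. The mean after 1000 ppm CO was at least 2.37-fold that after 3000 ppm CO, at least 2.91-fold that after 5% O2 and at least 2.39-fold that in air, taking the detection floor of each array for the dim groups. The other RT1-Bb probe, A_44_P500803, whose range was 1.18, was low in the same 3 rats at -2.58, -2.54 and -2.82, so the 2 probes of the gene disagreed.

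RT1-N3, which shares 30 of 32 aligned bases with RT1-N1, differed by -0.74 ± 0.18 and did not pass (limma adjusted p = 0.075). Tapbp differed by -0.54 ± 0.14 (limma adjusted p = 0.094). Tap1 differed by 0.70 ± 0.28 (limma adjusted p = 0.22). In all 9 members had an unadjusted limma p under 0.05 between the doses, 3 higher and 6 lower, against 19.1% of all probes. The 9 include RT1-Bb A_44_P552452, which entered the test through the 1000 ppm CO arrays. With slide as a random block 0 members and 0 of 32230 probes passed between the doses, and with normexp correction 0 members and 18 of 32230 probes did. With all arrays 1436 of 32230 probes passed. The member count was 0 without the 0 h or the 2 h array of 1000 ppm CO, where 570 and 283 of all probes passed. It was also 0 without the 0 h or the 2 h array of 3000 ppm CO (151 and 154 probes). Without the 2 h or the 6 h array of 5% O2 it was 1 (578 and 786 probes), and without the 0 h array of 5% O2 it was 2 (791 probes). Without the 6 h array of 1000 ppm CO it was 4 (1162 probes). It was 3 without any of the others in turn (394 to 2605 probes). Of the 10 cell type marker lists, 1 gene passed between the doses, the T cell gene Cd3d in the leukocyte list, which differed by 0.82 ± 0.13 (limma adjusted p = 0.019). In that list 4 of 6 detected genes had an unadjusted limma p under 0.05 and were higher after 3000 ppm CO, with 0 lower. Cd3e, another T cell gene, did not share that direction. It read -4.25, -4.56, -6.65 and -4.91 in the 1000 ppm rats and -6.25, -5.96, -4.81 and -6.17 in the 3000 ppm rats. Its signal was well above background on 7 of the 12 arrays. The part of Cd3d in the member differences was not tested.

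**Figure D5:**
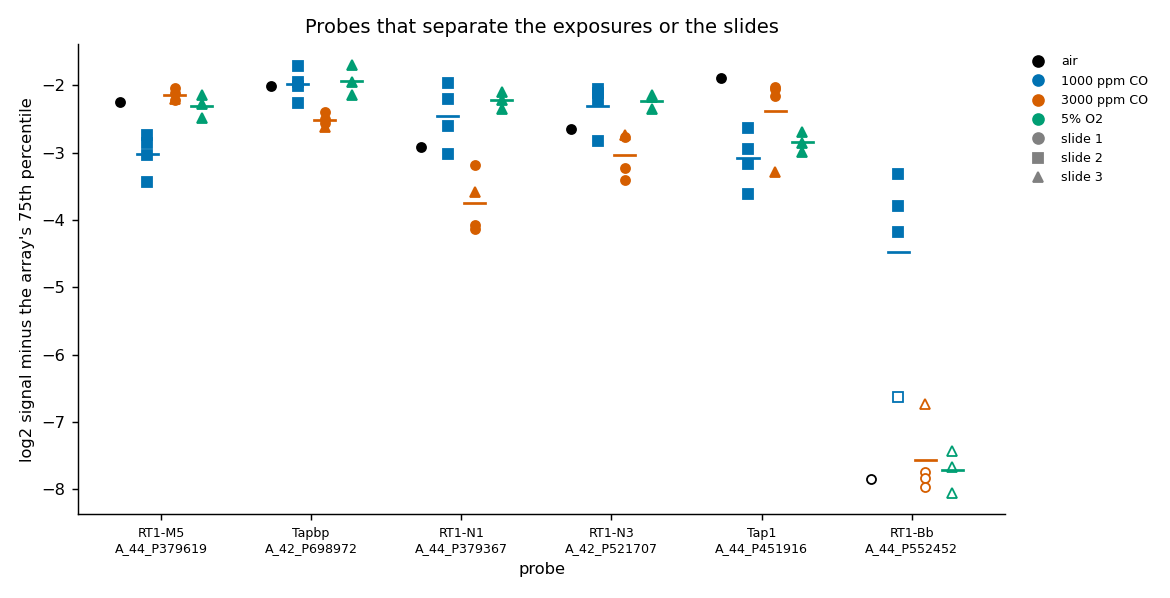
Levels of 6 probes by exposure (colour) and slide (symbol), as log2 signal minus the array's 75th percentile. Each point is 1 rat, bars are means of an exposure, and open symbols are signals not well above background. RT1-N1 lies between -4.14 and -3.18 after 3000 ppm CO and between -3.02 and -1.97 after 1000 ppm CO. The slide 1 arrays of Tap1 lie above those of slides 2 and 3, which overlap. Heights of different probes are not comparable.

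Carbon monoxide and low oxygen were then compared. Between 3000 ppm CO and 5% O2, 0 members passed, as did 0% of all probes, and 8 members had an unadjusted limma p under 0.05, 2 higher and 6 lower after CO, against 14.6% of all probes. The smallest p belonged to RT1-N1, with a difference of -1.63 ± 0.26 (CO minus low oxygen, limma adjusted p = 0.24), and RT1-S3 A_44_P454420, with 1.29 ± 0.24 (limma adjusted p = 0.24). Between 1000 ppm CO and 5% O2, 0 members passed, against 0.369% of all probes, and 3 had an unadjusted limma p under 0.05, against 12.3%. They were RT1-Bb A_44_P552452, for which no low oxygen array was well above background, RT1-M5, with -0.75 ± 0.19 (limma adjusted p = 0.20), and RT1-S3 A_44_P454420, with 0.59 ± 0.24 (limma adjusted p = 0.40). Without the 6 h array of 1000 ppm CO 1 member and 2077 of 32230 probes passed. The member was the same RT1-Bb probe, which leaves the 1000 ppm CO arrays that brought it through detection against arrays at background.

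Against air, 0 members passed for the 1000 ppm, the 3000 ppm or the low oxygen rats, against 0.109%, 0.00621% and 0% of all probes. At an unadjusted limma p under 0.05 they numbered 10, 5 and 5, against 11.7%, 4.37% and 7.31% of all probes. The 10 include RT1-Bb A_44_P552452, which entered the test through the 1000 ppm CO arrays and was not well above background in air. The median difference from air of the 10 class II probes was -0.83, -0.62 and -0.63, against -0.0050, 0.051 and -0.0055 for all probes. RT1-Bb A_44_P552452 went the other way, at least 2.39-fold above air after 1000 ppm CO. The 7 choroid plexus genes had median differences from air of -4.82, -6.16 and -2.21 in the same contrasts, with 0 passing, and their part in the class II values was not tested. RT1-Bb A_44_P500803 differed from air by -0.94 ± 0.24, -0.68 ± 0.24 and -0.76 ± 0.24 (limma adjusted p = 0.21, 0.94 and 0.62). RT1-Da A_44_P367688 differed from air by -1.87 ± 0.61 and -1.88 ± 0.61 after the 2 doses of CO (limma adjusted p = 0.30 and 0.86). All these values rest on the same 1 air rat, which they share.

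Array by array, the class II probes at least 2-fold below air numbered 5, 6, 0 and 3 of 10 after 1000 ppm CO, against 5.75%, 6.14%, 6.54% and 4.56% of all probes. In the 3000 ppm rats they numbered 3, 0, 2 and 4, against 1.82%, 3.21%, 3.06% and 5.06%, and in the low oxygen rats 1, 0 and 0, against 4.68%, 1.65% and 2.52%. Below air on all 11 exposed arrays were 5 of the 10: Cd74, both RT1-Da probes, RT1-Db1 A_44_P130513 and RT1-Bb A_44_P500803, against 7.73% of all probes. This count was 5 under quantile normalization and in the deposited values and 2, Cd74 and RT1-Da A_44_P991532, with normexp correction. Class I chain probes at least 2-fold above air numbered 2, 5, 1 and 7 of 32 after 1000 ppm CO, against 3.21%, 4.17%, 2.46% and 2.83% of all probes. They numbered 4, 2, 2 and 3 in the 3000 ppm rats, against 1.65%, 2.16%, 3.29% and 2.85%, and 2, 3 and 4 in the low oxygen rats, against 3.97%, 2.04% and 1.14%. RT1-EC2 A_44_P196401 was among them on 9 arrays and RT1-CE16 on 8. Class I chain probes at least 2-fold below air numbered 1, 1, 2 and 0 after 1000 ppm CO. In the 3000 ppm rats these numbered 2, 3, 1 and 2, and in the low oxygen rats 2, 2 and 1. Class II probes at least 2-fold above air numbered 1, 1, 0 and 1 after 1000 ppm CO and 0 on the other arrays. The shares of all probes in each direction are those given above.

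Other genes of these pathways gave few differences. In a list of 10 further genes of class I loading and the proteasome, 0 passed in any of the 9 contrasts. Their median level lay between 1.14 and 1.79. Hfe, a class I-like protein of iron handling, stood out in that list at -2.73 in air, -7.30, -5.87, -3.52 and -4.45 in the 1000 ppm rats, -5.65, -6.61, -5.93 and -5.55 in the 3000 ppm rats and -4.50, -3.45 and -3.19 in the low oxygen rats, well above background on 6 arrays. It was highest in air. Calreticulin (Calr), a chaperone of class I loading, differed by -0.41 ± 0.12 between 3000 and 1000 ppm CO (limma adjusted p = 0.12).

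In a list of 8 class II path genes, which held the promoter factors Rfx5, Rfxap and Rfxank and the lysosomal enzymes Ctss, Ctsl, Ctsb, Lgmn and Ifi30, 0 passed in any contrast. Their median lay between 1.80 and 2.30 over the 12 rats. It was lowest in the arrays where Cd74 and RT1-Da were lowest. There it was 1.80 and 1.95 in the 0 and 2 h rats of 1000 ppm CO and 1.85 in the 12 h rat of 3000 ppm CO. Ifi30, among the genes of middle signal that set this median, was lowest at 0 h after 1000 ppm CO (1.43), then at 12 h after 3000 ppm CO (1.55). Ctss, the protease that trims the invariant chain, read 5.16 in air, 5.14, 5.13, 4.83 and 4.96 in the 1000 ppm rats, 5.06, 5.38, 5.49 and 4.89 in the 3000 ppm rats and 5.10, 5.55 and 5.13 in the low oxygen rats, and was not low in the 0 and 2 h rats of 1000 ppm CO, where Cd74 was. Of 22 interferon-stimulated genes 19 passed detection and 0 passed the test in any contrast. Ifit3 read -6.28 in air, -4.94, -6.33, -5.91 and -4.95 in the 1000 ppm rats, -2.63, -5.15, -4.91 and -6.09 in the 3000 ppm rats and -2.04, -5.50 and -6.15 in the low oxygen rats, highest in the 0 h rats of 5% O2 and 3000 ppm CO. Its difference at 2 h against 0 h was -2.46 ± 0.70 (limma adjusted p = 0.97). Irf1, a transcription factor that acts on class I genes, differed by 0.53 ± 0.15 between 3000 and 1000 ppm CO (limma adjusted p = 0.12).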

How the data were processed

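Striatal RNA of 12 rats was labelled with Cy3 and hybridised to 1-colour Agilent rat arrays, 1 rat each. Per the file headers and the submitters' processing notes, the authors' scanner intensity values came from Agilent Feature Extraction 10.7.3.1, background-subtracted and not scaled between arrays. The deposited series table holds log2 values centred on each array's median, and its other scaling is not given in the sources used here. Spots flagged as outliers were left out, replicate spots were averaged, and 14 probes lacking a value on some array were dropped. The intensity was scaled to each array's 75th percentile, then taken to log2. Probes well above background on at least 3 arrays were tested with limma 3.58.1 in R 4.3.3 (exposure plus time, 5 residual degrees of freedom, Benjamini-Hochberg over 32230 probes). With 1 rat per group the spread comes from departures from this additive model, so precision is set by how few arrays there are. Correlations used 100000 permutations, with 6 pairs. The fit was tested on simulated data. The members and lists were chosen with earlier results of these data known. All members may be named. The 12 values are given for the brightest detected probe of each pathway and class II gene and for the class I chain probes with the 6 largest and 3 smallest ranges, and probes printed beyond these were chosen after their values were seen. Alternatives were quantile normalization, normexp background correction with offset 50, the deposited log2 values, other detection filters, 1 probe per gene, another variance prior, slide terms, other fold thresholds and leaving out arrays. Promoter sequences were from RefSeq (GRCr8).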

Additional observations from a re-analysis of the deposited data

Results flagged for a closer look

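For 4 probes the later arrays of an exposure all lay above its own 0 h array while those of another exposure all lay below theirs, with means at least 1 log2 unit apart. They were 4 of 51 members, against 9.16% of all probes. The difference was not tested in any of them, since each array is a single rat. RT1-T18 A_44_P358358 averaged 0.92 above its 0 h array after 1000 ppm CO and -0.66 after 3000 ppm CO, a difference of 1.58. RT1-T24-1 averaged 0.77 after 1000 ppm CO and -0.57 after 5% O2, a difference of 1.34. RT1-Db1 A_44_P130516 averaged 0.69 after 1000 ppm CO and -0.38 after 5% O2, a difference of 1.08. Cd74 averaged 0.95 after 1000 ppm CO and -0.17 after 5% O2, a difference of 1.12. Each of these rests on the 0 h rat of its exposure, which for Cd74 was -1.85 after 1000 ppm CO.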

How the results depend on the processing

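Every group holds 1 rat and the dose contrast coincides with slide, which limits all values here. The count of 3 members that differed between the doses of CO became 0 with normexp correction and 0 with slide as a random block, and ran from 0 to 4 when single arrays were left out. Over all 32230 probes the count of 1436 became 18 and 0 in these settings, and ran from 151 to 2605 when single arrays were left out. Normexp correction moved the median difference of all probes between the doses from 0.03 to -0.20. With slide as a fixed factor the contrasts of 1000 ppm CO could not be fitted. Between 1000 ppm CO and 5% O2 the count of 0 ran from 0 to 1 when single arrays were left out, while that of all probes ran from 0 to 2077. The 84 differences from air of at least 2-fold, summed over the 11 arrays, became 190 at 1.5-fold, 37 at 3-fold and 32 with the median of the 12 arrays as the reference. At 2-fold, 1.14% to 4.17% of all probes lay above air on an array and 1.65% to 6.54% below it. No share over all probes is given here for the other thresholds or reference, so those counts only show how the setting moves them. With slide as a fixed factor Tap1 differed between 5% O2 and air by 0.25, the reverse of its main sign. With normexp correction RT1-CE10 and RT1-M5 at 6 h after 1000 ppm CO lay 0.58 and 0.61 above air, also reversed. The cause was not tested. Leaving out single arrays moved r of Cd74 with RT1-Da from 0.94 to 0.98, of Cd74 with B2m from 0.40 to 0.70 (0.70 without air, adjusted permutation p = 0.047), of B2m with Tap1 from -0.16 to 0.18, of the microglia median with Cd74 from -0.52 to 0.099 and of the perivascular macrophage median with Cd74 from -0.083 to 0.31. With normexp correction r was -0.43 for B2m with Tap1, 0.017 for the microglia median with Cd74 and -0.098 for the perivascular macrophage median with Cd74, and in the deposited values it was -0.25 for B2m with Tap1. The count of 11 members with a range of at least 4-fold stayed within 1.5 times under the 3 other scalings. No paired analysis was possible because each group has 1 rat and its number pairs no samples.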

Other observations

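Some members not described above also had more than 1 probe. The 2 RT1-S3 probes differed: A_44_P454420 ran from -1.84 to -0.29, with the 5% O2 rats at -1.84, -1.83 and -1.45, while A_44_P128151 ran from -0.02 to 0.82. The 2 RT1-Cl probes ran from -0.60 to 0.52 and from 0.82 to 1.76. RT1-M3-1, a non-classical class I gene, ran from 0.70 to 1.82, with its 3 lowest values in the 0, 2 and 6 h rats of 3000 ppm CO. RT1-T24-1 was lowest at 2 h after 5% O2, at -2.28.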
